A study of Mus musculus with 45 samples.

Results

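Mouse chromosome 7 was followed across 45 mammary tumors by array comparative genomic hybridization, which sets tumor DNA against reference DNA at fixed positions. The members were the 2999 probes placed on chromosome 7 by the array design (mouse build mm8), of 42235 autosomal and X-linked probes. They left out 7 probes of 5 genes, namely Akt2, Ccnd1, Ccne1, Fgfr2 and Hras1, which were kept apart by rule. A gene name was attached to 2602 of the members, and there were 1586 such names. The members ran from position 3215773 to 145131345 with a median gap of 16.7 kb. The study profiled tumors of 8 genetically engineered mouse (GEM) models to find recurrent copy number changes that might carry genes aiding oncogene-driven tumor formation. All tumors came from female mice, and every tumor was hybridized against pooled spleen DNA.

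The 8 models differed in the allele that starts the tumor. Of these, 5 tumors came from BRCA1fl/fl;p53+/-;MMTV-cre mice, written BRCA1-/-;p53+/- below, in which Cre driven by the mouse mammary tumor virus promoter deletes Brca1 in mammary epithelium of animals that also lack 1 p53 allele. The 6 p53-/- tumors came from transplanted p53fl/fl;MMTV-cre tissue, so that tumors of a shared donor cannot be told apart from independent ones. The same viral promoter drove c-Myc in 5 MMTV-Myc tumors, Her2/neu in 5 MMTV-Her2/neu tumors, H-Ras in 5 MMTV-HRas tumors, polyoma middle T antigen in 9 MMTV-PyMT tumors and Wnt1 in 5 MMTV-Wnt1 tumors. The remaining 5 tumors carried the SV40 large T and small t antigens under the C3(1) promoter and are written C3(1)-Tag. A log ratio of a whole tumor mixes altered cells with unaltered ones, so fewer copies per cell and fewer altered cells cannot be told apart.

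Chromosome 7 of the mouse carries several imprinted clusters, among them the Igf2 and Kcnq1 domain near its distal end, and large families of olfactory, vomeronasal, Mrgpr and zinc finger genes. Whole-chromosome loss, focal amplification and breaks inside a chromosome are separate kinds of change: the first lowers every gene by a small step, the second raises a short stretch by many copies, and the last separates stretches at different levels. Short stretches rich in duplicated gene families also differ in copy number between inbred mouse strains.

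The distal gain of a single MMTV-PyMT tumor, described below, held several microRNA genes, with 13 mature forms in RefSeq between its outermost genes. For 2 of these forms, those of Mir7063, it is not known whether they were gained, because they lie between Sct and Muc6, an interval that also holds a stretch without gain. The mature sequences of 2 of these genes, Mir210 and Mir202, are shown because their flanking genes lie inside the highest gain of at least 10 probes on the chromosome. Capitals mark the seed, bases 2 to 8. Sequences and positions are those of RefSeq on GRCm38.p6, a later build than the mm8 positions of the probes, and the genes were placed by their neighbours. Mir210 lies between Rassf7 and Irf7 (minus strand, chr7:141221407-141221428 for the 3p arm and chr7:141221445-141221466 for the 5p arm), and Mir202 lies between Utf1 and Spef1l (minus strand, chr7:139957695-139957716 for the 3p arm and chr7:139957732-139957752 for the 5p arm).
mmu-miR-210-3p: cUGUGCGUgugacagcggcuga
mmu-miR-210-5p: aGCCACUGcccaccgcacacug
mmu-miR-202-3p: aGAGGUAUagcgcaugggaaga
mmu-miR-202-5p: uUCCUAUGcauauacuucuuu
The seeds of the 4 mature forms all differ. Only DNA was measured here, so their levels are not known.

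Ratios are given as log2 of Cy3 over Cy5, with the median of each array's autosomal probes set to 0, so that 0 is the usual copy number of the tumor and negative values are losses. This runs against the labels, which put tumor DNA in Cy5. With Cy3 as tumor, a probe inside Brca1 lay between -5.14 and -1.69 in the BRCA1-/-;p53+/- tumors and between -0.64 and 0.78 in all others, and all 35 filtered chromosome 7 intervals of the authors carried the same sign. A second Brca1 probe was not lower in those tumors (0.15 to 0.81). Probe noise, an SD from differences between neighbouring probes, ranged from 0.158 to 0.475 (median 0.234), and at least 97.4% of members were measured on every array. The number of arrays limits the precision.

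Some arrays stood apart. Outside chromosome 7 the arrays C3TAg_5RPT and H2N53 correlated at r = 0.957 over 1935 bins, and C3TAg_7RPT and H2N61 at 0.926, although each pair carries labels of different models, C3(1)-Tag and MMTV-Her2/neu. The next highest pair, H2N1 and H2N53, reached 0.829. Over the 122 bins of chromosome 7 the same first pairs correlated at 0.288 and 0.701. The test of model means, the counts of tumors with loss and the counts of genes were repeated without these 4 arrays. The Wnt1 probe read 0.07 in Wnt_4635 and between 1.07 and 1.5 in the other 4 MMTV-Wnt1 tumors, and the main results on MMTV-Wnt1 tumors are also given without this array. The lowest correlation between arrays, over all autosomal probes, was -0.40.

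Chromosome 7 was lowest in MMTV-Her2/neu tumors. Its mean log2 ratio was -0.41 in H2N1, -0.41 in H2N53, -0.23 in H2N61, -0.05 in H2N64 and -0.41 in H2NA. All but H2N64 were below -0.2, and chromosome 7 ranked among the 3 lowest of 19 autosomes in all 5 of them. The group mean was -0.30 ± 0.16 (SD, n = 5) against -0.07 ± 0.16 in the tumors of the other 7 models. The difference of -0.23 had p = 0.00293 in a two-sided exact permutation test and 0.0235 after Benjamini-Hochberg adjustment over 8 models.

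That difference was -0.38 within the slides that held MMTV-Her2/neu and other arrays (exact permutation p = 0.00694, adjusted 0.0347) and -0.25 within scan dates (exact permutation p = 0.0148, adjusted 0.103). Both adjustments ran over only the models that shared a slide or a scan date with another model, fewer than the 8 above. Within slides only 4 MMTV-Her2/neu tumors entered, since H2N64, the one near 0, was alone on its slide. Without the 4 look-alike arrays it was -0.23, with 3 MMTV-Her2/neu tumors left and an adjusted exact permutation p of 0.118. Leaving out H2N1, H2N53 or H2NA alone gave -0.21 each time, and the adjusted exact permutation p then lay between 0.126 and 0.132. Across these settings the difference thus lay between -0.38 and -0.21, and the call was kept only within slides.

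The other models had means closer to 0. In C3(1)-Tag tumors the mean was 0.03 in C3TAg2, 0.00 in C3TAg4, -0.38 in C3TAg_5RPT, -0.26 in C3TAg_7RPT and -0.33 in C3TAg_8_RPT, which left 2 tumors at 0 and 3 low (group mean -0.19 ± 0.19, n = 5). Without the look-alike arrays, 1 of the 3 remaining C3(1)-Tag tumors was low. BRCA1-/-;p53+/- tumors ranged from -0.28 to 0.03 (mean -0.13 ± 0.13, n = 5), and p53-/- tumors from -0.42 to 0.32 (mean -0.06 ± 0.31, n = 6), the widest spread of any model.

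MMTV-HRas (-0.07 ± 0.11, n = 5), MMTV-Wnt1 (-0.07 ± 0.09, n = 5), MMTV-PyMT (-0.01 ± 0.07, n = 9) and MMTV-Myc tumors (0.01 ± 0.04, n = 5) had group means close to 0. Single MMTV-HRas tumors ranged from -0.17 to 0.10. The MMTV-Wnt1 mean was lowered by Wnt_4635 at -0.22, and the other 4 tumors of this model lay between -0.06 and -0.00. In the same exact permutation test none of these 7 models passed, with adjusted p between 0.397 and 0.742. The difference for C3(1)-Tag was -0.11 (-0.16 to -0.06 as each tumor was left out), and within slides it turned to 0.12. Only C3TAg2 and C3TAg4 entered that value, beside H2N1 and H2NA among others, because the 3 low tumors shared a slide with no other model. MMTV-Myc and MMTV-PyMT tumors had differences of 0.11 and 0.10.

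**Figure D1:**
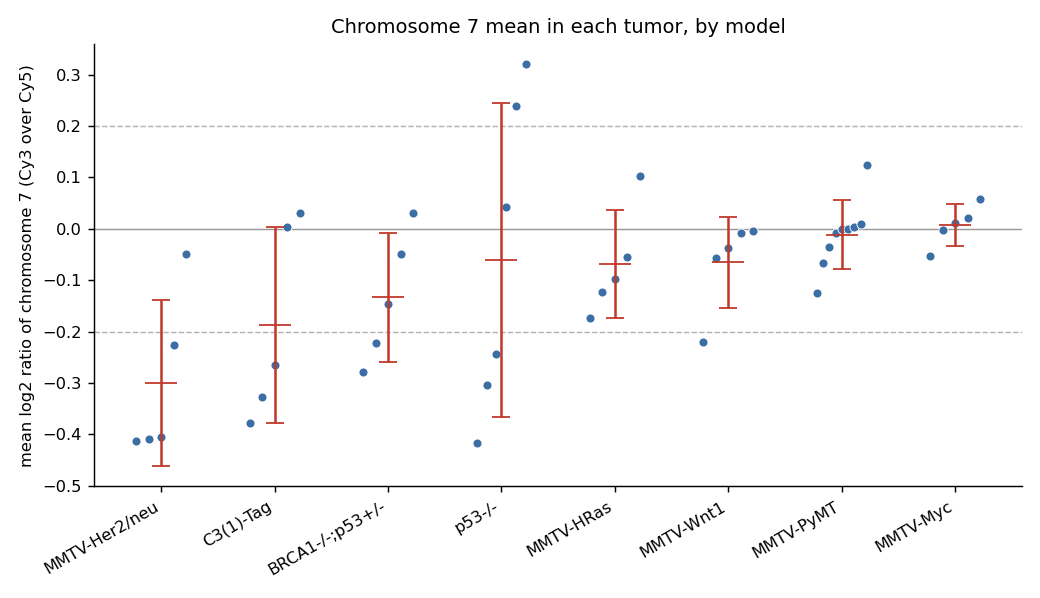
Mean log2 ratio of the 2999 chromosome 7 probes (y axis) in each of 45 tumors (dots) by model (x axis), with the group mean and SD as a bar and dashed lines at the 0.2 limits for gain and loss. In MMTV-Her2/neu, 4 of 5 dots lie at -0.23 or lower, while MMTV-Myc and MMTV-PyMT dots lie near 0 and p53-/- dots span -0.42 to 0.32.

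Losses were counted after each array was divided into segments of even level by circular binary segmentation, and a segment was called lost or gained at a mean of 0.2 in size. At least 10% of the chromosome 7 probes were lost in 13 of 45 tumors and gained in 2, and neither in 30. Of the 13, 9 had lost at least 90% of the probes, so that loss mostly covered the whole chromosome. Among the 19 autosomes only chromosome 10 was lost in more tumors (16), and the median autosome was lost in 5. These counts rest on the direction of the ratio: with the dyes as labelled, chromosome 7 would be lost in 2 tumors and gained in 13, and only chromosome 13 would be lost in fewer (1).

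By model, loss was seen in 4 of 5 MMTV-Her2/neu tumors (exact 95% confidence interval of the share 28.4% to 99.5%), 3 of 5 C3(1)-Tag tumors (14.7% to 94.7%), 3 of 6 p53-/- tumors (11.8% to 88.2%) and 2 of 5 BRCA1-/-;p53+/- tumors (5.27% to 85.3%). The single MMTV-Wnt1 tumor with a loss was Wnt_4635, the array without a raised Wnt1 probe, and without it no MMTV-Wnt1 tumor had one. No loss was called in 5 MMTV-HRas or 5 MMTV-Myc tumors, where the interval reaches 52.2%, or in 9 MMTV-PyMT tumors, where it reaches 33.6%. These intervals overlap widely, and they cover the number of tumors alone.

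Gain was called only in 2 p53-/- tumors, P53_5817 over 97.6% of the probes and P53_1573 over 39.5%. The p53-/- tumors therefore held both directions: P53_2979, P53_5809 and P53_8546 were losses and P53_5851 stayed at 0.04. P53_2979 and P53_5809, both losses, also correlated with each other at 0.703 outside chromosome 7 and at 0.878 on it. The authors' own intervals covered at least 10% of chromosome 7 as lost in 7 tumors, 4 of them MMTV-Her2/neu, and as gained in the same 2 p53-/- tumors. C3TAg_7RPT (82.3%) and P53_2979 (100%) were among the 7. By contrast, C3TAg_5RPT, C3TAg_8_RPT and P53_5809 were lost over 0% and P53_8546 over 1.43%. The BRCA1-/-;p53+/- tumor among the 7 was Brcap53_682, lost over 99.5% by the authors, while Brca_14 and Brca_54 were not, so neither of the tumors of this model called above was shared.

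**Figure D2:**
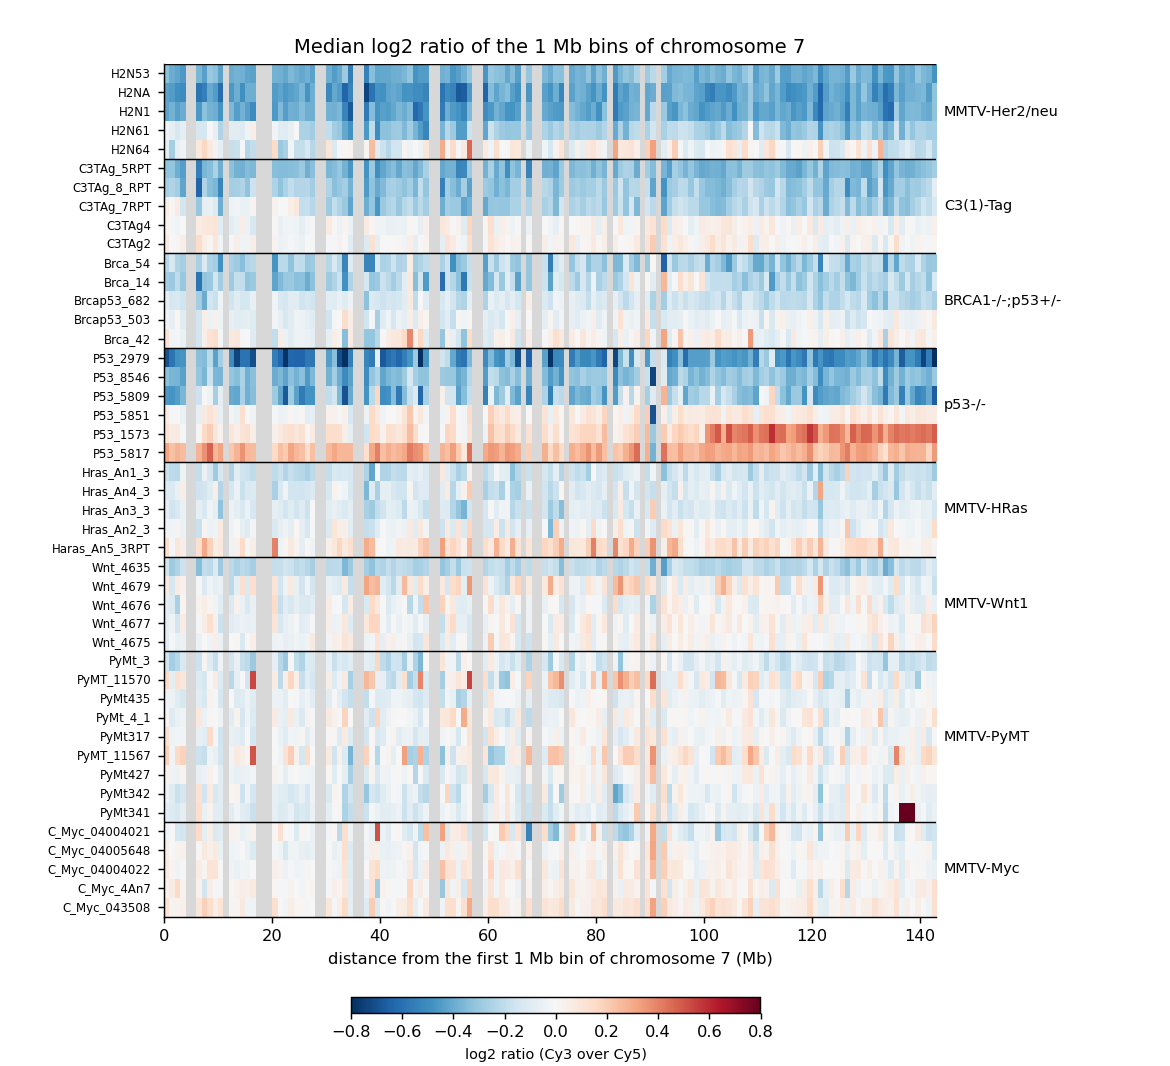
Median log2 ratio of 122 bins of 1 Mb along chromosome 7 (x axis, distance from the first bin in Mb) in 45 tumors (rows, by model), with blue for loss, red for gain and grey where no bin was made. Even colour over a whole row marks a whole-chromosome change, as in H2N1, H2N53 and H2NA, and the dark red bins near the distal end belong to PyMt341.

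Steps between long stretches were few: 5 tumors carried 6 breakpoints between segments that were both longer than 10 Mb. In C3TAg_7RPT the level fell from -0.04 to -0.31 between Zfp36 and Samd4b (28085514 to 28122015), Zfp36 being a factor that destabilises mRNA. In H2N61 it fell from -0.05 to -0.28 after the same Zfp36 probe. These are the arrays of a look-alike pair, so a shared position is not independent evidence of a recurrent break.

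In Brca_14 a stretch at 0.10 lay between a break beside Fzd4, a Wnt receptor (89285213 to 89302082), and another after Olfr594 (103093992 to 103114048). The 492 probes before it averaged -0.24 and the 793 after it -0.22, so the middle stretch was not called lost. The authors' filtered intervals, which leave out those of 1 or 2 probes, give that stretch as a gain of 0.37. They call only 3 probes of the chromosome lost in this tumor. In P53_1573 the level rose from 0.15 to 0.44 after Olfr578 (102858024), so the gain called in this tumor was distal. This extent depends on the centring: the authors' intervals cover nearly all of its probes as gained, and centring on the density peak moved its chromosome mean from 0.24 to 0.49. In P53_5809 the level fell from -0.12 to -0.38 after Tnrc6a (122965417), which encodes a protein of microRNA silencing, but its position was not kept when isolated probes were smoothed.

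**Figure D3:**
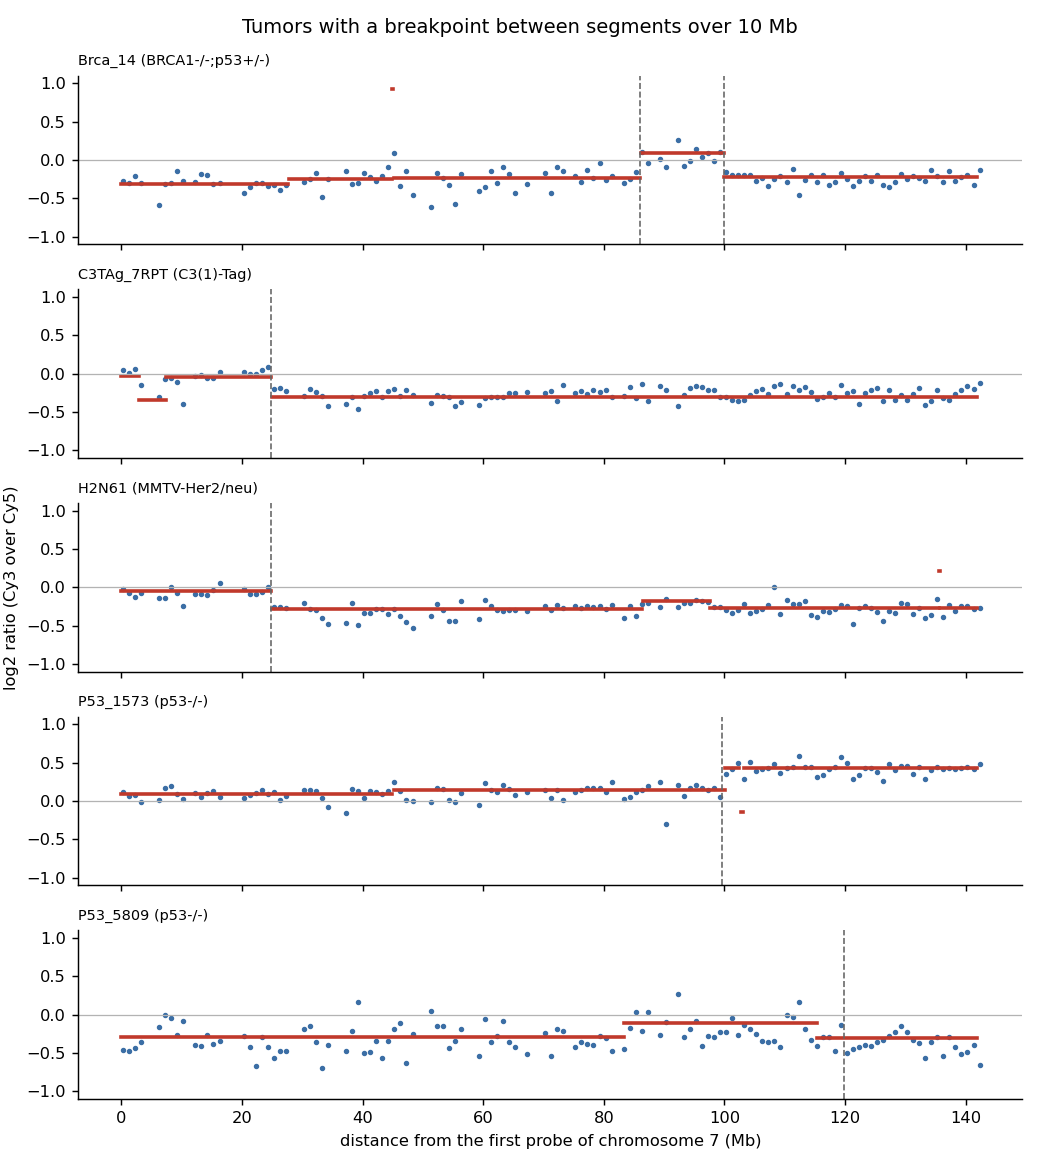
Medians of 1 Mb bins (dots, log2 ratio) along chromosome 7 (x axis, distance from the first probe in Mb) in the 5 tumors with breakpoints between long segments, with segment means after smoothing of isolated probes (red lines) and breakpoints (dashed). C3TAg_7RPT and H2N61 step down at the same place, Brca_14 has a raised middle stretch, P53_1573 steps up towards the distal end, and in P53_5809 the smoothed segments step down before the dashed line.

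The distal part (beyond 100 Mb, 1295 probes) was set against the proximal part (up to 50 Mb, 1075 probes) within each array, a difference that does not depend on centring. Distal minus proximal was 0.10 ± 0.09 in p53-/- tumors (n = 6) and 0.07 ± 0.10 in MMTV-PyMT tumors (n = 9), the latter raised by PyMt341 at 0.32. The p53-/- difference from the other models was 0.080 (exact permutation p = 0.0155, adjusted 0.124), which did not pass, and no other model reached a lower exact permutation p than 0.0999. The p53-/- value passed with medians of probes (0.089, adjusted exact permutation p = 0.00472) and without PyMt341 (0.088, adjusted exact permutation p = 0.00561). It rested largely on P53_1573, whose own value was 0.28, and without that tumor it was 0.045 (adjusted exact permutation p = 0.389). The proximal part also lay below the middle part in 37 of 45 arrays, by a median of 0.041, so a small step of this kind is common to the arrays.

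The only gain of at least 10 probes that reached a high level was distal and belonged to the MMTV-PyMT tumor PyMt341. It covered 139 probes and 77 gene names between 139088198 and 142194883, a span of 3.11 Mb, in 2 segments of 107 and 32 probes. Their means were 2.75 and 2.77. All 139 probes read above 1 and 136 above 2, with a mean of 2.76, a range of 1.77 to 3.78 and an SD of 0.307. A ratio of this size is 6.76 times the reference on the linear scale. The same probes averaged between -0.45 and 0.42 in each of the other 44 tumors, which did not overlap with it.

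The edges were sharp. The 20 probes before the gain averaged 0.09 and the 20 after it -0.17. Between the 2 segments lay 30 probes at a mean of -0.05, which covered Deaf1, Tmem80, Eps8l2, Taldo1, Pddc1, Cend1, Lrdd, Rplp2, Pnpla2, Cd151, Tspan4, Chid1 and part of Ap2a2. Lrdd, also known as Pidd, encodes an adaptor that binds caspases after DNA damage, and it was therefore at usual copy number inside the gained span. The Hras1 probe, no member here, read 2.76.

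Among the genes of the first segment the highest probes belonged to 5830411N06Rik (gene mean 3.34), AK010407 (3.30), Olfr535 (3.24), Kndc1 (3.05), a guanine nucleotide exchange factor, and Mucdhl (2.83), a cadherin-related gene. In the second segment they belonged to AF121215 (3.13), the gel-forming mucin gene Muc5b (3.06), Tollip (3.03), an inhibitor of Toll-like receptor signalling, the kinase gene Brsk2 (2.86) and 2700078K21Rik. Of the genes that flank the microRNAs above, Utf1 read 2.57, Rassf7 2.54 and Irf7 2.88, Irf7 being an activator of interferon genes. Sirt3, a mitochondrial deacetylase, read 2.81 and Ctsd, the lysosomal protease cathepsin D, 2.77. These last genes were chosen after their values were seen.

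**Figure D4:**
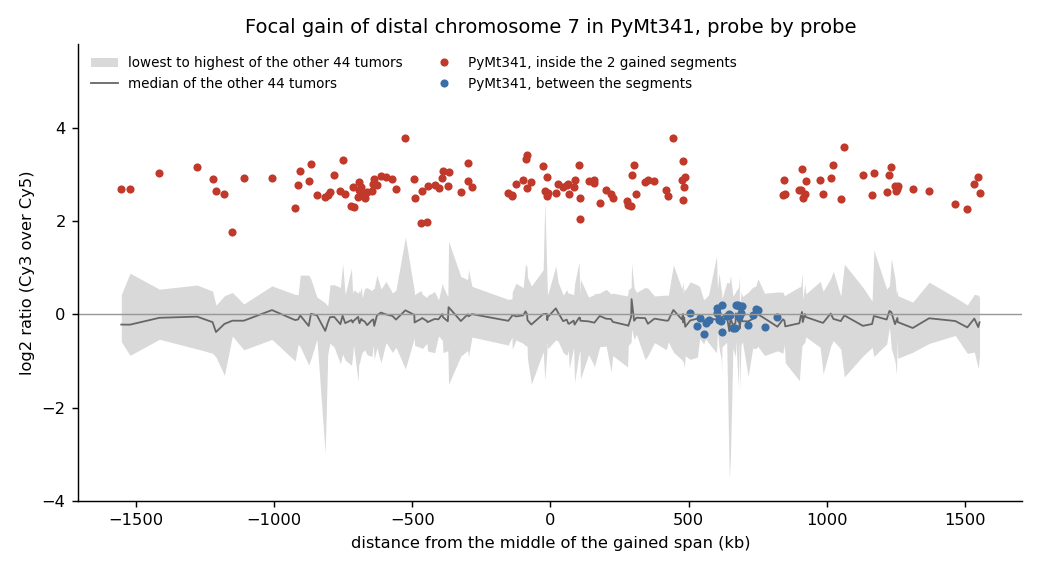
Log2 ratio (y axis) of the probes around the distal gain of PyMt341 (dots) against distance from the middle of the gained span in kb (x axis), with the range of the other 44 tumors shaded. The gained probes lie at 1.77 to 3.78 and fall to near 0 in a gap of 30 probes. The median of the other tumors stays around 0, though at single probes their range reaches -3.54 and 2.44.

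The next highest gain of at least 10 probes averaged 0.67, in P53_5817 between 9584984 and 11806857 (25 probes). Haras_An5_3RPT carried a low proximal gain between 6280438 and 13346705 (78 probes, mean 0.28), the only other focal gain of over 50 probes outside the p53-/- tumors. In all, the 45 tumors held 428 segments. Of these, 245 were focal, up to 10 Mb long and called, 61 as gains and 184 as losses, and they lay in 30 tumors. Of the focal segments 150 held only 5 to 9 probes and 39 had a median under 0.2 in size, so that a few deviating probes set their mean. When isolated deviating probes were drawn in before segmentation, 26 focal segments were left. H2N53 alone had 56 segments, all called lost, and was 1 lost segment after smoothing, so a focal loss in this count can be a slice of a chromosome lost as a whole.

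A few short segments recurred at the same probes, and they are described here with no test because they were found in these values. The clearest covered Mrgprb4, Mrgprb8 and Mrgprb1 (48066915 to 48315862, 5 probes), members of a family of receptors in sensory neurons and mast cells. It read 1.81, 1.98, 2.92, 3.06 and 2.92 in the 5 BRCA1-/-;p53+/- tumors. In p53-/- tumors it read 2.94 in P53_1573, 3.27 in P53_5817, 3.31 in P53_5851 and 2.38 in P53_8546, but 0.03 in P53_5809 and -0.55 in P53_2979. In the other 6 models the highest value was 0.50, in Hras_An2_3, and PyMT_11567 and PyMT_11570 were at -1.29. Medians over the 5 probes were 1.57 to 3.81 in the BRCA1-/-;p53+/- tumors and 1.15 to 2.15 in the 4 high p53-/- tumors. With isolated deviating probes smoothed, the segments called there had means of 0.61 to 1.49 and 0.89 to 1.47, so the height depends on the treatment of such probes. On the unsmoothed means, all 5 BRCA1-/-;p53+/- tumors lay above every tumor of the other 6 models. The p53-/- tumors as a group overlapped with those models. Whether non-tumor DNA of the same mice carries this or any other short segment was not tested.

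The neighbouring Mrgpra2 segment (47256974 to 47428940, 5 probes) was raised in the same 5 BRCA1-/-;p53+/- tumors (0.81 ± 0.18, SD, n = 5) and reached at least 0.5 in 4 of 6 p53-/- tumors. It was at -1.49 in PyMT_11567 and -1.52 in PyMT_11570. These means, too, rest on a few of the probes: the medians were 0.23 to 0.85 in the BRCA1-/-;p53+/- tumors, 0.11 to 0.70 in those 4 p53-/- tumors, and -0.44 and -0.57 in the 2 MMTV-PyMT tumors. The limits of the Mrgprb segment, before Mrgprb4 and inside Mrgprb1, were the breakpoints shared by most tumors, 7 in each case. In all, 341 breakpoints fell at 208 positions, of which 67 were shared by at least 2 tumors.

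A segment over Hamp2, Hamp1, Usf2 and Lsr (30631129 to 30666583, 5 probes), where the Hamp genes encode the iron hormone hepcidin, was low in BRCA1-/-;p53+/- tumors at -0.90 ± 0.54 (SD, n = 5). It was at most -0.5 in 4 of those 5, in 3 of 5 C3(1)-Tag tumors and in 1 of 5 MMTV-Her2/neu tumors. The last 4 were tumors in which most or all of chromosome 7 was called lost, at means of -0.38, -0.26, -0.33 and -0.41, and C3TAg_5RPT and C3TAg_7RPT among them are look-alike arrays. Brca_14 and Brca_54, among the low BRCA1-/-;p53+/- tumors, were also called lost over 89.8% and 92.6% of the chromosome, at means of -0.22 and -0.28. With isolated deviating probes smoothed, the segment remained only in Brca_54, at -1.05. Among olfactory receptor genes, the Olfr628 segment (103571533 to 103644888, 5 probes) read -1.60 in PyMT_11567, -1.56 in PyMT_11570 and -1.71 in Wnt_4679. The Trim30 segment beside it (104164881 to 104419946, 10 probes), with genes of the antiviral Trim family, read -1.19, -1.34 and -1.25 in the same 3 tumors. A few probes set these means, since the medians over the probes were -0.85, -0.80 and -0.49 for Olfr628 and -0.49, -0.48 and -0.16 for Trim30, and the Trim30 medians lie within the range of the other tumors. These 3 arrays were the only ones on their slide and scan date, so the slide and the tumors cannot be told apart. The Gvin1 segment (105979391 to 106228145, 6 probes), named for a large interferon-inducible GTPase, ran the opposite way in these 3 tumors. It read 0.54, 0.62 and 0.70 there, the highest values of the 45. It averaged -0.51 ± 0.38 (SD, n = 5) in BRCA1-/-;p53+/- tumors, from -0.95 to 0.03. In p53-/- tumors it averaged -0.54 ± 0.43 (SD, n = 6), from -1.06 to 0.09. With isolated deviating probes smoothed, a segment with these limits remained only in P53_5817 (-0.30) and P53_5851 (-0.66).

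**Figure D5:**
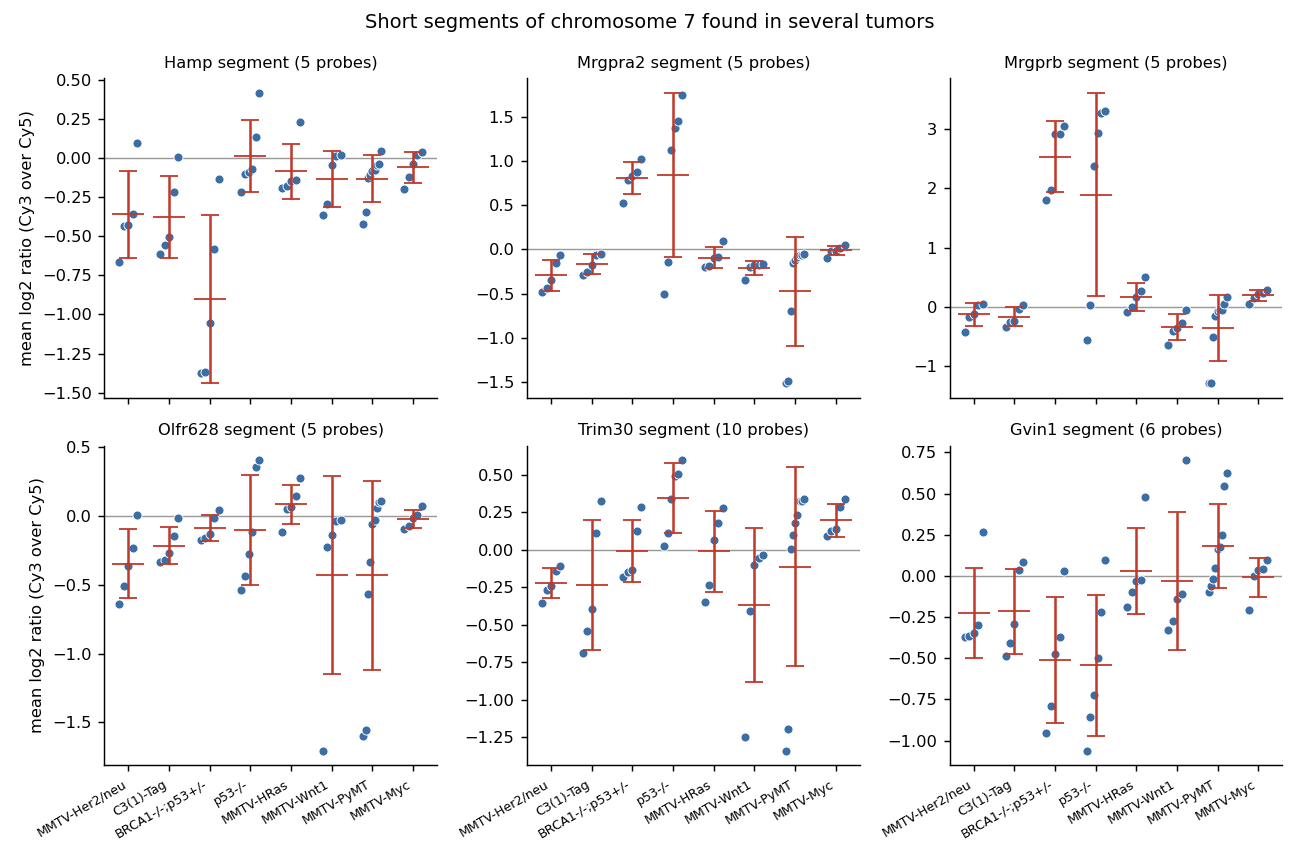
Mean log2 ratio (y axis) of 6 short recurrent segments in each tumor (dots) by model (x axis), with group mean and SD. The Mrgprb segment lies at 1.81 to 3.06 in all BRCA1-/-;p53+/- tumors and is split between 4 high and 2 low p53-/- tumors, and the means of the Olfr628 and Trim30 segments, set by a few probes, are low in 2 MMTV-PyMT tumors and 1 MMTV-Wnt1 tumor.

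Gene families differed in how often a probe stood apart from the rest of its chromosome. Over all members, 1.69% of values lay at least 1 away from the array's chromosome 7 median. The share was 6.67% for the 12 Mrgpr probes, 3.81% for 14 Trim probes, 2.35% for 18 V1r vomeronasal probes and 2.33% for 21 Nlrp probes, whose genes encode inflammasome and oocyte proteins. It was 1.60% for 75 Zfp probes, 1.31% for 148 Olfr probes and 0.654% for 17 Klk kallikrein probes. It was 0 for 5 Siglec, 2 Hbb and 2 Saa probes. Among Mrgpr probes it was 23.3% in BRCA1-/-;p53+/- and 16.7% in p53-/- tumors, where it was 2.69% and 4.14% over all members. V1r probes were also highest in these models, at 5.56% and 10.2%, and Nlrp probes in p53-/- tumors at 7.94%. Trim probes were highest in MMTV-PyMT tumors at 6.35%, where the share was 2.09% over all members. Probes of such families can match several copies of a gene, so a value cannot be tied to 1 copy.

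The bins were tested with limma over all 2057 autosomal bins of 1 Mb, each model against the mean of the other 7. In MMTV-Her2/neu all 122 bins of chromosome 7 were lower, by a median of -0.23 and between -0.34 and -0.08. None passed after adjustment (smallest adjusted p by limma 0.101), though 112 were under 0.05 unadjusted, and 0% of all bins passed in this comparison. With H2N64 left out, 95 of the 122 passed, but this removes the tumor of the model without the loss. In the other 44 settings that left out 1 tumor the count stayed at 0. As all 122 bins were lower, the lower level was not set by a short stretch, although H2N61 stayed at -0.05 up to its break after Zfp36.

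In p53-/- tumors 1 bin passed by limma beside 7.1% of all bins. It lay at 93 to 94 Mb and differed by -0.39 (adjusted p by limma 0.00675), with bin medians of -0.30, -0.19, -0.10, -0.38, -0.70 and -0.73, and held 3 probes with no gene name. It no longer passed with normexp background correction or in 2 Mb bins. No bin of chromosome 7 passed by limma in the other 6 models. Their counts at an unadjusted p under 0.05 were 3 in BRCA1-/-;p53+/-, 1 in C3(1)-Tag, 1 in MMTV-HRas, 25 in MMTV-Myc, 11 in MMTV-PyMT and 3 in MMTV-Wnt1. The shares of all bins that passed were 2.48%, 0%, 17.8%, 0.438%, 2.72% and 0.0486% in the same order, so none of the MMTV-HRas bins that passed lay on chromosome 7.

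Single genes were tested in the same way, 19812 in all and 1557 on chromosome 7. The 29 chromosome 7 names without a value on every array were not tested. In BRCA1-/-;p53+/- tumors 27 were lower and 17 higher by limma, 2.83% of the chromosome 7 genes beside 5.22% of all genes, and 22 of the 44 rested on 1 probe. The 44 became 28 with slide and 20 with scan date as a random block, 24 without Brca_14 and 27 without Brca_42. Hamp2 was lowest at a difference of -1.90 (SE 0.24, adjusted p by limma 5.13e-07), with -1.17, -0.30, -3.99, -3.44 and -1.52 in the tumors and -0.46 to 0.12 in all others. Of these tumors only Brcap53_682 lay within the range of the others. The difference passed in every alternative but was -0.70 with normexp and -0.64 with isolated deviating probes smoothed.

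The next 4 genes in BRCA1-/-;p53+/- tumors were Mrgprb1 (difference 1.66, adjusted p by limma 0.00131), AK039610 (-1.57), AK032249 (1.36) and the mast cell receptor family gene Mrgprb8 (1.17). Mrgprb1 read between 1.17 and 2.41 in these tumors. AK032249 read 0.34, 0.10, 0.63, 2.57 and 2.65, of which the first 2 lay within the range of the other tumors (up to 0.41), and its difference was 0.54 with smoothing. AK039610 was at -1.78, -3.05 and -2.76 in Brcap53_503, Brca_14 and Brca_42 but at 0.08 and -0.10 in Brcap53_682 and Brca_54, so it was not low in all tumors. With normexp background correction 11 genes passed, and the differences of AK039610 and Mrgprb1 shrank to -0.24 and 0.51 and no longer passed.

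In p53-/- tumors 45 genes were lower and 148 higher by limma, 12.4% of those on chromosome 7 beside 16.7% of all genes, and 105 rested on 1 probe. Lower and higher genes together numbered 114 with slide and 105 with scan date as a random block, and 98 without P53_5809. Zfp78, a zinc finger gene, read 3.78, 3.05, 3.58 and 3.80 in P53_1573, P53_5817, P53_5851 and P53_8546, but 0.12 in P53_2979 and -0.63 in P53_5809 (difference 2.43, SE 0.35, adjusted p by limma 3.21e-06). With normexp background correction its difference was -0.03. Mrgprb1 followed the same split, at 3.03, 3.61, 3.77 and 2.64 against -0.29 and 0.02, and its difference was 0.44 with normexp, which still passed by limma.

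The genes AI428936 (difference -1.33), BC058674 (-1.35) and Rgs9bp (-1.32), an anchor of a signalling regulator in retina, were lower in p53-/- tumors. With isolated deviating probes smoothed, the 3 differences shrank to -0.37, -0.30 and -0.02, and only AI428936 still passed by limma. With normexp that of Rgs9bp was -0.25 and did not pass. BC058674 was low in BRCA1-/-;p53+/- tumors too, between -3.54 and -0.82, and at -2.83 in H2N53, so that no p53-/- tumor lay below all others. Rgs9bp read -2.10, -2.64, -2.45 and -2.33 in the same 4 tumors and 0.44 and 0.64 in P53_2979 and P53_5809. In these genes, too, P53_2979 and P53_5809 were set apart from the other 4, and this split was noticed after the values were seen.

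In MMTV-Her2/neu tumors 3 genes passed by limma, all lower and all known by accession only: AK014683 (-0.92), AK009735 (-0.62) and AK045908 (-0.54). At an unadjusted p under 0.05 there were 628, and 0.0353% of all genes passed. AK014683 rested on H2N53 at -2.42, was -0.55 without that tumor, and read 0.12 in H2N64. None of the 3 passed without the look-alike arrays. The count was not stable: it was 12 with normexp, 0 without H2N1, H2N53 or H2NA, 16 without H2N61, 85 without H2N64, and 3 to 16 as each tumor of another model was left out. MMTV-HRas had 3 lower and 2 higher genes beside 4.67% of all genes: the leukocyte tetraspanin gene Cd37 (-0.65), the deubiquitinase gene Usp47 (-0.63) and Olfr476 (-0.54) were lower, and Siglecf (0.54), a receptor of eosinophils, and Abpz (0.48) were higher. None of these 5 passed with slide or scan date as a random block or with normexp, which brought Cd37, Usp47 and Olfr476 to -0.05, -0.09 and -0.21. In MMTV-Myc tumors only AK085454 passed (0.51, and 0.38 with the call lost without C_Myc_04004021), beside 0.666% of all genes. No chromosome 7 gene passed by limma in C3(1)-Tag, MMTV-PyMT or MMTV-Wnt1 tumors, with 166, 270 and 148 under 0.05 unadjusted and 0.00505%, 0.5% and 0.0858% of all genes passing. For MMTV-PyMT this count of 0 became 32 with normexp, 11 with loess and 2 with centring on the density peak.

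Of 117 symbols listed for chromosome 7 by role, 85 were on the array and 84 could be tested. Only p53-/- tumors had any that passed by limma, 1 lower and 3 higher, and these 4 of 84 were a smaller share than the 16.7% of all genes and 12.4% of chromosome 7 genes that passed there. Usp29, an imprinted deubiquitinase gene beside Peg3 (6335247 to 6565049), read -1.18, -0.51, -0.43, -0.74, -0.42 and -1.24 (difference -0.69, SE 0.15, adjusted p by limma 0.00135). With normexp the difference was -0.25, which still passed by limma. Usp29 was negative in 6 of 6 tumors, and 2 of them lay below all other tumors. The imprinted genes as a list had 20 tested and a median difference of 0.05 in p53-/- tumors, beside 0.02 over the chromosome.

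Tead1, the transcription factor at the end of Hippo signalling, was higher in p53-/- tumors by 0.48 (adjusted p by limma 0.00796), at 0.66, 0.72 and 0.83 in P53_2979, P53_5809 and P53_5817 but at -0.26 and -0.14 in P53_5851 and P53_8546. It no longer passed by limma with normexp (0.26) or without P53_5809 (0.40). Kcnq1, the imprinted potassium channel gene, was higher by 0.35 (adjusted p by limma 0.0363) and the kinase gene Pak1 by 0.29 (adjusted p by limma 0.0425). The last 2 no longer passed when the 4 look-alike arrays were left out or slide or scan date was a random block.

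In MMTV-Her2/neu tumors no listed gene passed by limma, but 82 of 84 had a difference below 0. Wbp7, also known as Kmt2b and a histone methyltransferase gene, came closest (difference -0.66, adjusted p by limma 0.0768), with -0.61, -2.08, -0.36, -0.39 and -0.40 in the tumors. E2f8, a repressor of cell cycle genes, was among the most even at -0.43, -0.41, -0.28, -0.41 and -0.42, and so was low in H2N64 too. The growth factor receptor gene Igf1r read -0.38, -0.42, -0.37, 0.01 and -0.56, and the mitotic kinase gene Wee1 read -0.46, -0.45, -0.34, -0.17 and -0.48. Both followed the chromosome in having their highest value in H2N64.

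The lists kept to that level as well. In MMTV-Her2/neu tumors the median difference was -0.18 for 10 DNA repair genes, -0.21 for 20 imprinted genes, -0.18 for 11 genes around Gab2, Pak1 and Rsf1, -0.24 for 7 genes around Fgf3, Fgf4 and Cttn, -0.24 for 4 cell cycle genes and -0.23 for 15 genes of growth signalling. It was -0.27 for 8 epithelial genes, -0.27 for 5 p53 targets and genes of apoptosis and -0.23 for 4 candidate tumor suppressor genes. Over all chromosome 7 genes it was -0.22. In p53-/- tumors the lists had medians between -0.15 (p53 targets) and 0.07 (epithelial genes) beside 0.02 over the chromosome.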

How the data were processed

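Tumor and pooled spleen DNA had been labelled with Cy3 and Cy5 and hybridized to Agilent 44K CGH arrays (2 colours). Per the labels, the authors extracted spot intensities with Agilent Feature Extraction 10.7 (9.5.1.1 per the file headers), which subtracts background and normalizes the dyes. The deposited files hold these intensities, used for background checks and for the normexp setting, and a log10 ratio of Cy5 over Cy3 for each probe. The deposited interval table of the authors gives, per tumor, intervals with probe counts and log2 ratios, and it was used for comparison only. Its p-values were not used.

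The log10 ratios were changed to log2 with the sign turned, outlier and control spots were left out, and each array was centred on its autosomal median. Segments were found by circular binary segmentation (split statistic over 6, at least 5 probes, gain or loss at 0.2), in Python 3.11.15 with numpy 2.4.6 and numba 0.67.0. A breakpoint is a step of at least 0.2. Data were simulated with independent normal noise at the noise SD of each array. Steps of 0.4 over 30 probes were then found in 88.9% of arrays and steps of 0.2 over 500 probes in 51.1%. A step of 0.2 equals the limit for a call, so such a segment can fall below it even when its borders are found. The simulated arrays held no isolated deviating probes, so they do not show how short segments set by such probes arise. Model means were compared by exact permutation tests (scipy 1.17.1), and bins of at least 3 probes and genes with limma 3.58.1 in R 4.3.3, each model against the mean of the other 7, with Benjamini-Hochberg adjustment over all autosomal bins or genes (adjusted p of 0.05). In simulated bins, limma recovered 55.5% of shifts of 0.3 and 98% of shifts of 0.6. The labels do not say whether tumors of a model came from separate litters, and p-values measure only the spread between these tumors.

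Genes named are those of the lists by role, the 5 largest differences that passed in each model, the genes of the 5 highest probes of large focal segments, and those at shared breakpoints. The members and lists were chosen with earlier results of these data known. Slides (18) and scan dates (10) were tried as batches. No BRCA1-/-;p53+/-, p53-/- or MMTV-HRas array shared a slide with another model, nor BRCA1-/-;p53+/- a scan date, so these cannot be told apart from the model. Alternatives were other centring, background correction, loess, thresholds, bin sizes, blocks and leaving out each tumor.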

Additional observations from a re-analysis of the deposited data

Results flagged for a closer look

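In MMTV-Wnt1 the chromosome 7 mean log2 ratio of Wnt_4635 was -0.22, far from the other 4 tumors (-0.06 to -0.00), and this is the array whose Wnt1 probe was not raised. In C3(1)-Tag the distal minus proximal log2 ratio of C3TAg_7RPT was -0.13, against -0.01 to 0.03 in the other 4 tumors, and this array holds the breakpoint after Zfp36 and is one of a look-alike pair with H2N61. In MMTV-Myc the distal minus proximal log2 ratio of C_Myc_04004021 was -0.032, against 0.013 to 0.030 in the others. In MMTV-PyMT that of PyMt341 was 0.32, against 0.01 to 0.08 in the other 8 tumors, and it holds the distal gain. These 4 tumors were singled out because each lay far outside the range of its model, by a rule that chance alone meets in about 1 in 20 groups, and 16 groups were examined. No cause was tested.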

How the results depend on the processing

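No paired analysis was possible because the replicate numbers only name tumors. Slides and scan dates that held several models were compared within themselves instead. With the dyes as labelled every sign turned: the mean differences became 0.0448 (BRCA1-/-;p53+/-), 0.105 (C3(1)-Tag), 0.233 (MMTV-Her2/neu), -0.0272 (MMTV-HRas), -0.113 (MMTV-Myc), -0.103 (MMTV-PyMT), -0.0316 (MMTV-Wnt1) and -0.0382 (p53-/-), and distal minus proximal 0.0397, 0.0591, 0.0170, 0.0186, 0.0256, -0.0433, 0.00420 and -0.0804 in that order. Lost tumors then became 0 and gained tumors 2, 3, 4 and 1 in BRCA1-/-;p53+/-, C3(1)-Tag, MMTV-Her2/neu and MMTV-Wnt1, and p53-/- had 2 lost and 3 gained. A long step near 0.2 in size can be missed because its segment mean may fall below the limit of 0.2 for a call.

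The mean difference of MMTV-Her2/neu lost its call within scan dates (-0.250) and without the 4 look-alike arrays (-0.234), and ranged from -0.296 to -0.205 as each tumor was left out. It reversed within slides for C3(1)-Tag (0.120) and MMTV-Wnt1 (-0.0226, also within scan dates), and with probe medians for p53-/- (-0.00474). Leaving out tumors gave -0.0157 to 0.0533 for MMTV-HRas and -0.0380 to 0.110 for p53-/-. Distal minus proximal passed in p53-/- with probe medians (0.0893) and ranged from 0.0449 to 0.0968 as tumors were left out. It reversed in MMTV-HRas within scan dates (0.0582) and in MMTV-Wnt1 with normexp (0.00454), probe medians (0.0139) and without Wnt_4635 (0.00070), with ranges as tumors were left out of -0.0101 to 0.0032 for MMTV-Wnt1 and -0.0306 to 0.0099 for MMTV-Her2/neu.

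Lost MMTV-Wnt1 tumors fell to 0 with density-peak centring, normexp, a segment mean of 0.3, the authors' intervals and without Wnt_4635, and lost MMTV-PyMT tumors rose to 1 with density-peak centring. At a segment mean of 0.15, lost tumors were 1 in MMTV-HRas and 2 in MMTV-PyMT and gained ones 1 in MMTV-HRas. A 50% share left 1 gained p53-/- tumor. The authors' intervals gave 1 lost tumor each in BRCA1-/-;p53+/- (not one of the 2 counted above), C3(1)-Tag and p53-/-. Without the look-alike arrays lost tumors were 1 in C3(1)-Tag and 2 in MMTV-Her2/neu.

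Choices added after seeing the data changed the number of segments, focal segments and breakpoints to 135, 26 and 55 with isolated probes smoothed, 774, 449 and 634 at a split statistic over 5, and 219, 102 and 151 over 8. Bins that passed numbered 24 in MMTV-Her2/neu and 0 in p53-/- with normexp, 1 in MMTV-Myc with loess, 0 in p53-/- at 2 Mb, 1 in BRCA1-/-;p53+/- and 6 in p53-/- at 0.5 Mb, and 3 and 6 with bin means. Left-out tumors gave 0 to 1 in MMTV-HRas, 0 to 95 in MMTV-Her2/neu and 1 to 3 in p53-/-.

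Genes that passed (added choices) numbered 2 in MMTV-PyMT with density-peak centring, and with normexp 11 in BRCA1-/-;p53+/-, 0 in MMTV-HRas, 12 in MMTV-Her2/neu, 2 in MMTV-Myc and 32 in MMTV-PyMT. Loess gave 1 in MMTV-Her2/neu and 11 in MMTV-PyMT, bright probes 2 in MMTV-Myc, smoothing 28 in BRCA1-/-;p53+/- and 0 in MMTV-Her2/neu, which also had 0 without the look-alike arrays. The slide block gave 28, 0 and 114 and the scan date block 20, 0 and 105 in BRCA1-/-;p53+/-, MMTV-HRas and p53-/-. Listed genes in p53-/- fell to 2 with density-peak centring, without the look-alike arrays and with either block, and numbered 1 in MMTV-Her2/neu and 2 in MMTV-PyMT with normexp and 1 in MMTV-PyMT with loess. Left-out tumors gave 24 to 52 genes in BRCA1-/-;p53+/-, 0 to 1 in C3(1)-Tag, 0 to 10 in MMTV-HRas, 0 to 85 in MMTV-Her2/neu, 0 to 3 in MMTV-Myc, 0 to 4 in MMTV-PyMT and 98 to 224 in p53-/-, and listed genes of 0 to 3 in BRCA1-/-;p53+/-, 0 to 3 in MMTV-Her2/neu and 1 to 6 in p53-/-. Zfp78 in p53-/- turned to -0.0311 with normexp. Except for the dyes as labelled and as listed here, the causes of these changes were not tested. The distal gain of PyMt341 kept its direction in all settings other than the dyes as labelled.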
